A study of Homo sapiens with 2 samples.

Results

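The integrated stress response genes described here are 10 human genes, *ATF4*, *DDIT3*, *ATF3*, *TRIB3*, *ASNS*, *CHAC1*, *SESN2*, *DDIT4*, *PSAT1* and *PHGDH*, taken as a named list, with every probe that the platform annotation assigns to them. They had 16 probes of the 47323 on the array, or 10 of 20046 named genes. The measurements came from 2 single-channel Illumina bead arrays, which form 1 group. Both arrays carried RNA of HUES8 cells, a human embryonic stem cell line, that had been grown in suspension and differentiated to stage 6 of a protocol that yields SC-beta cells, insulin-secreting cells made from stem cells. The cells had been sorted as positive for NKX6-1 and insulin, and MARIS, which recovers RNA after cells are fixed and stained for proteins inside them, supplied the RNA. The arrays are biological replicates of 1 cell line, per the series design text, and the islet, stem cell and earlier-protocol arrays that the study set beside them were not analysed here. There is thus no untreated or unstressed group, no test between groups was possible, and differences below are replicate 2 minus replicate 1, each resting on 1 array per replicate.

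In the integrated stress response, kinases that sense amino acid shortage, misfolded protein in the endoplasmic reticulum, viral RNA or lack of haem phosphorylate the translation factor eIF2. General translation then drops, while the mRNA of the transcription factor *ATF4*, which carries upstream reading frames, is translated more. ATF4 protein, often paired with a C/EBP factor, switches on genes of amino acid synthesis and of stress adaptation, and, through *DDIT3*, of cell death. Beta cells make large amounts of proinsulin, and the eIF2 kinase PERK is required for their function. Since ATF4 is controlled largely at translation, the level of its mRNA is not a measure of the protein.

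ATF4 and its partners bind a C/EBP-ATF response element. RefSeq promoter windows (GRCh38.p14, 250 bases before to 50 after each annotated start) were found for all 10 genes, in 16 windows, and were searched on both strands for the element's letters TGATGNAA. The letters were found in 3 of the 16 windows, 1 each of *ASNS*, *CHAC1* and *ATF3*, and in 3.62% of the 35116 windows of all genes. By gene, that is 3 of 10 members, beside 4.46% of all gene symbols. Several windows of the same member overlap, and the letters were chosen with the windows in view, so these shares are no test. A match is a description of the sequence and not evidence of binding. These 3 windows are shown because they hold the letters. On the arrays, *ASNS* was above background on both, *CHAC1* on neither, and *ATF3* had the largest difference between the replicates among the members. Capitals mark the matched letters, which begin 68, 209 and 191 bases before the start in *ASNS*, *CHAC1* and *ATF3*. The match in *CHAC1* is on the opposite strand. The windows lie at chr7:97872359-97872658 (minus strand), chr15:40953221-40953520 (plus strand) and chr1:212565157-212565456 (plus strand).
ASNS: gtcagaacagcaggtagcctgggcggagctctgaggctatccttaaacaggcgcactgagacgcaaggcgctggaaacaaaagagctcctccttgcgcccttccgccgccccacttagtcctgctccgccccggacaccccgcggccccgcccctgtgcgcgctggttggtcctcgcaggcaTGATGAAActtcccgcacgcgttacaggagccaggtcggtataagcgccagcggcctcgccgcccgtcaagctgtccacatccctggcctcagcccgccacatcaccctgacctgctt
CHAC1: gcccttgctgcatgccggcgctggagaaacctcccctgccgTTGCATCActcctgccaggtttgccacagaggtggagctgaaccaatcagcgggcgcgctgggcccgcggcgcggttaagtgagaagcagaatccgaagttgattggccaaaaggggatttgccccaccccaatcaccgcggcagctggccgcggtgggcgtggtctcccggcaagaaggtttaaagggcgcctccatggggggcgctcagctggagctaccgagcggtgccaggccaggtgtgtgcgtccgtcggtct
ATF3: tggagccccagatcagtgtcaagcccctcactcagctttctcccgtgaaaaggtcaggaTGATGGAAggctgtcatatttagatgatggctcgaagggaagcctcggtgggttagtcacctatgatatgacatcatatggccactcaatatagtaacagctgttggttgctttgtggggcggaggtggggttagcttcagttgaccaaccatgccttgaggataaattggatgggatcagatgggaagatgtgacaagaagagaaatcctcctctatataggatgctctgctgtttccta
*ASNS* and *ATF3* each have another annotated start whose window held no match. The letters of the cyclic AMP response element, TGACGTCA, were found in 0 of the 16 windows and in 1.85% of all windows.

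The deposited values are background-subtracted, normalized intensities on a linear scale, so they can fall below 0. A probe was called above background on an array if it exceeded the 95th percentile of 457 olfactory receptor probes there, a floor of 15.9 on replicate 2 and 18.01 on replicate 1. By this rule 11 of the 16 probes (68.8%) were above background on both arrays, against 38.1% of all named probes. By gene, counting a gene if any of its probes passed, 9 of 10 were, against 46.9% of all named genes. Genes with more probes pass more easily: 42.0% of named genes with 1 probe did, 53.3% with 2 and 62.3% with 3 or more. Of the 6 members with 1 probe, 5 passed, all but *CHAC1*, and the 4 members with 2 or more probes all did. Each array held RNA from many cells, so fewer cells of a type and less RNA per cell cannot be told apart. A probe's brightness depends on its sequence as well as on its RNA, and levels are therefore not compared between probes.

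**Figure D1:**
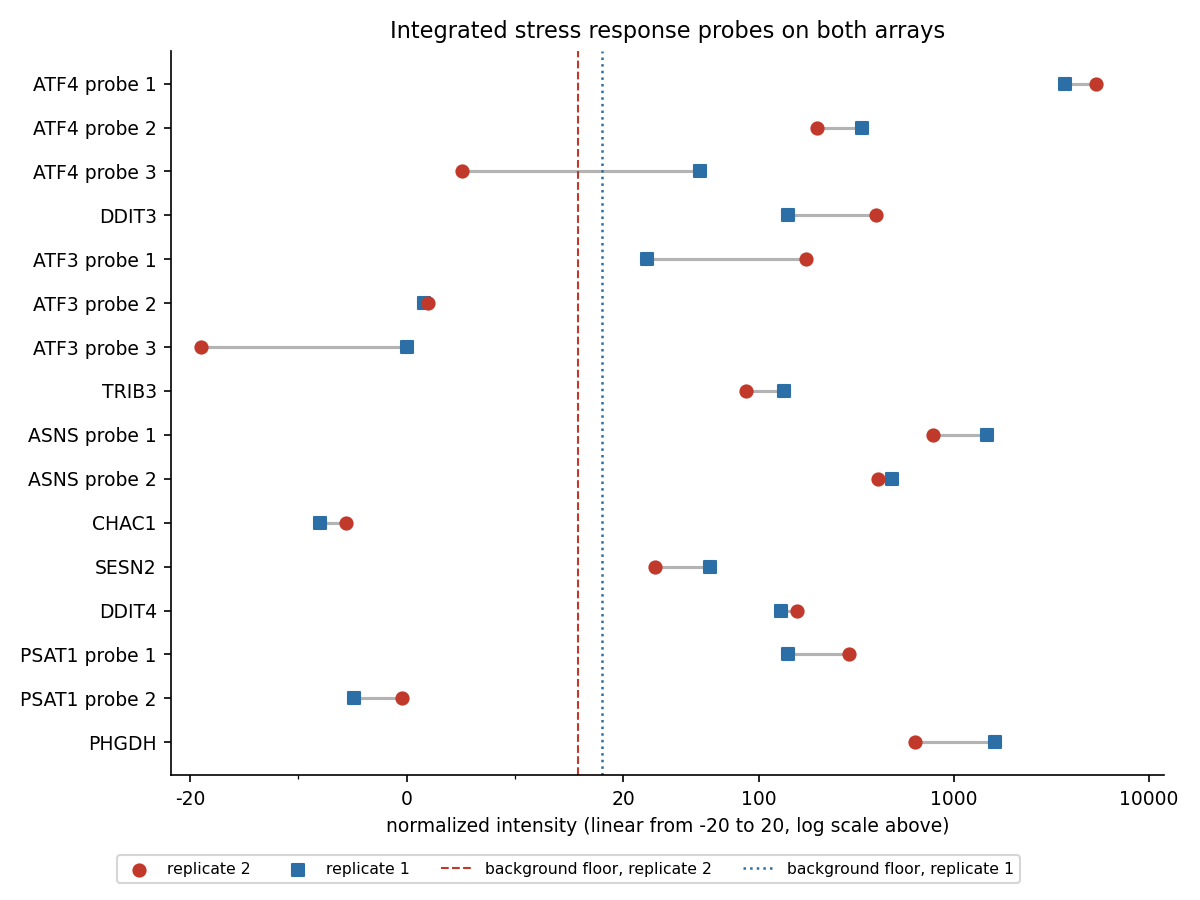
Normalized intensity of the 16 probes on replicate 2 (circles) and replicate 1 (squares), on an axis that is linear around 0 and logarithmic above 20; dashed and dotted lines mark each array's background floor, and the probes of a gene are numbered from the highest mean intensity. The 11 probes right of both floors belong to 9 genes, and *CHAC1* lies below 0 on both arrays.

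The 3 transcription factors were all detected, but in 2 of them the signal depended on the probe. *ATF4*, which encodes the central transcription factor of the response, had 5355 on replicate 2 and 3695 on replicate 1 at its brightest probe (ILMN_1672128), 0.54 higher on the log2 scale in replicate 2. Its probe ILMN_2358457 had 198 on replicate 2 and 336 on replicate 1, a log2 difference of -0.76. The third, ILMN_1783394, had 5.12 on replicate 2, below the floor, and 49.8 on replicate 1, at least 3.14-fold lower in replicate 2. The *ATF4* probes thus did not give 1 direction, and the 2 above background on both arrays lay 1.30 apart on the log2 scale. Among all 1844 named genes with 2 or more such probes, the probes lay 2-fold or more apart in 31.5% and differed in sign in 38.1%. The *ATF4* transcripts that the annotation names for these probes are both current in RefSeq, and the brightest and the dimmest probe are annotated to the same one.

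*DDIT3* encodes CHOP, the factor that ATF4 induces and that promotes cell death in prolonged stress. Its single probe had 399 on replicate 2 and 139.75 on replicate 1, a 2.85-fold difference (log2 1.51). *ATF3*, a stress-inducible repressor of the same protein class, had 173 on replicate 2 and 26.5 on replicate 1 at 1 of its 3 probes, ILMN_2374865, which is 6.54-fold (log2 2.71). This was the largest difference among the members, and 1.03% of all named genes above background differed by as much or more in either direction. The value on replicate 1 lay close to the floor, and with the floor at the 99th percentile of the olfactory receptor probes (32.3 on replicate 1) *ATF3* was not above background there. The other *ATF3* probes were not above background on either array. One of them, ILMN_1791346, is annotated to the same transcript and had 1.95 on replicate 2 and 1.58 on replicate 1, and ILMN_1661109, annotated to another transcript, had -18.98 on replicate 2 and 0.00745 on replicate 1.

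The enzymes of amino acid synthesis did not differ in a single direction. *PHGDH*, the first enzyme of serine synthesis from glucose, had 632 on replicate 2 and 1621 on replicate 1, 2.57-fold lower in replicate 2 (log2 -1.36). *PSAT1*, which encodes the next enzyme of the same pathway, had 290.3 on replicate 2 and 140.6 on replicate 1, 2.07-fold higher in replicate 2 (log2 1.05). The differences of these consecutive enzymes lay 2.41 apart on the log2 scale. The other *PSAT1* probe, annotated to another transcript, had -0.468 on replicate 2 and -4.84 on replicate 1, below the floor on both. With each array centred on its median, the *PSAT1* difference was 0.99, just under 2-fold. *PSPH*, the last enzyme of the pathway, is not among the members. It had 72.8 on replicate 2 and 62.3 on replicate 1 at one probe and 25.8 on replicate 2 and 91.8 on replicate 1 at the other, so its probes differed in direction (log2 0.23 and -1.83). *ASNS*, asparagine synthetase, had 776 on replicate 2 and 1476 on replicate 1 at its brighter probe and 407 on replicate 2 and 478 on replicate 1 at the other. Both *ASNS* probes were lower in replicate 2, with log2 differences of -0.93 and -0.23.

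Of the genes for feedback and growth control, none of those above background was 2-fold apart, where 24.5% of all named genes were. So few genes do not set this group apart, and *SESN2* came close at 1.91-fold. *TRIB3*, a pseudokinase that binds ATF4 and dampens its activity, had 85.1 on replicate 2 and 134 on replicate 1 (log2 -0.66). *SESN2*, which encodes a leucine-binding inhibitor of the growth kinase complex mTORC1, had 29.2 on replicate 2 and 55.8 on replicate 1 (log2 -0.94). *DDIT4*, also called REDD1 and likewise an inhibitor of mTORC1, had 156 on replicate 2 and 129.97 on replicate 1 (log2 0.26). *CHAC1*, an enzyme that breaks down glutathione, had -5.60 on replicate 2 and -8.02 on replicate 1, and was the member with no probe above background on either array.

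Over the 9 members above background, 5 were higher and 4 lower in replicate 2 at the brightest probe. Among all named genes above background, more were higher than lower as well, so this split does not set the members apart. With the median over a gene's probes above background on both arrays, *ATF4* turned to -0.11, and 4 were higher and 5 lower. This median leaves out the dimmest *ATF4* probe, which was also lower in replicate 2. At the brightest probe, 3 (*ATF3*, *DDIT3* and *PSAT1*) were 2-fold or more higher, where 13.5% of all 9393 named genes above background were, and 1 (*PHGDH*) was 2-fold or more lower, where 10.9% were. Their median log2 difference was 0.26, beside 0.21 over all named genes. It was -0.20 with the 99th percentile floor, which leaves out *ATF3*. With the median over a gene's probes above background it was -0.11, so its sign depended on these choices. Differences of the size of most members were common on these arrays. A difference at least as large as that of *DDIT4* was found in 75.2% of all named genes above background, of *ATF4* in 52.2%, of *TRIB3* in 43.0%, of *ASNS* in 27.8%, of *SESN2* in 27.4% and of *PSAT1* in 22.6%. The share was 12.7% for *PHGDH* and 9.37% for *DDIT3*. Dimmer genes differed more between the arrays. Split by brightness into 3 groups of 3131 genes, 28.8% of the dimmest, 26.9% of the middle and 17.7% of the brightest group were 2-fold or more apart. *ATF3* and *SESN2* were in the dimmest group and *ATF4*, *ASNS* and *PHGDH* in the brightest.

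**Figure D2:**
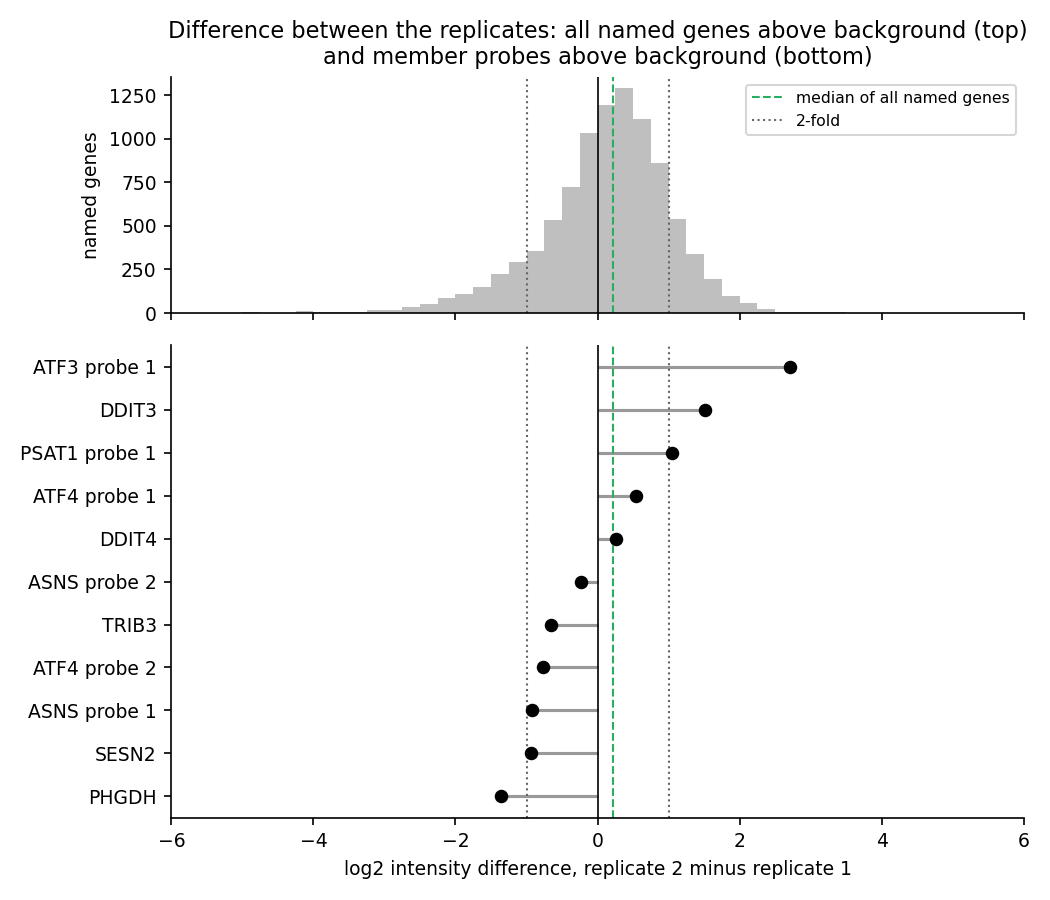
Log2 intensity difference, replicate 2 minus replicate 1, as a histogram over the 9393 named genes above background (top) and for each of the 11 member probes above background (bottom); the dashed line is the median of all named genes, 0.21, and dotted lines mark 2-fold. *ATF3*, *DDIT3* and *PSAT1* lie right of the upper 2-fold line and *PHGDH* left of the lower one, and the *ATF4* probes lie on opposite sides of 0.

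Markers and a gene group that responds to handling also differed between the replicates. Of 8 immediate-early genes, which are transcribed within minutes of a stimulus, 5 were above background on both arrays. All 5 were higher in replicate 2, 4 of them 2-fold or more, with a median log2 difference of 3.41. Of the rest, *FOSB* passed only on replicate 2, with 496 there and 14.5 on replicate 1. *JUNB* went the other way, with -5.51 on replicate 2 and 25.0 on replicate 1, where alone it passed. *NR4A1* passed on neither array. The summed intensity over all 8 genes, at the probe of each gene taken above and with values below 0 counted as 0, was 5834 on replicate 2 and 692 on replicate 1. *FOS* had 2250 on replicate 2 and 111 on replicate 1, and *JUN*, whose protein can pair with ATF3, had 1261 on replicate 2 and 322 on replicate 1. *ATF3* is itself induced by many of the same stimuli. The 6 liver markers, of which all but *TF* were above background, summed to 4574 on replicate 2 and 3146 on replicate 1. Of those above background, 4 were higher and 1 lower in replicate 2, with a median log2 difference of 0.99. *ALB* and *APOA2* each differed by 1.25 on the log2 scale, and the lower marker, *APOA1*, by -1.16. The sum depended on the probe of *SERPINA1*, with 941 on replicate 2 and 561 on replicate 1 at the probe counted. Another probe of this gene above background had 1735 on replicate 2 and 263 on replicate 1. The 5 mesenchymal markers summed to 363 on replicate 2 and 216 on replicate 1. Of these, *COL3A1* and *PDGFRB* were above the floor on replicate 2 only, *COL3A1* with 76.6 on replicate 2 and 12.3 on replicate 1. *VIM* differed by 0.65 on the log2 scale at the probe counted and by 2.83 at its other probe. The 4 proliferation markers summed to 189.5 on replicate 2 and 22.04 on replicate 1. Of these, *CCNB1* was above background on both arrays, with 75.7 on replicate 2 and 21.6, close to the floor, on replicate 1. *TOP2A* and *CDK1* were above the floor on replicate 2 only, with 85.4 and 23.8 there, and *MKI67* on neither array. The part of these genes in the member differences was not tested. Of the 8 beta cell markers, 7 were above background on both arrays, with none 2-fold apart. *INS* had 16501 on both arrays. Of the others above background, 3 were higher and 3 lower in replicate 2, with log2 differences from -0.19 to 0.60, the highest in *PDX1*. The markers summed to 51452 on replicate 2 and 50148 on replicate 1, totals made up largely of *INS* and *CHGA*. Both lie near the top of the scale, and quantile normalization gives equal ranks equal values, so the totals say little about beta cell content. The marker not above background on both was *NKX6-1*, whose protein was used in the sort, with -4.24 on replicate 2, below the floor, and 78.9 on replicate 1. Among the other islet hormones *GCG* had 6346 on replicate 2 and 4606 on replicate 1, and *SST* 3028 on replicate 2 and 1924 on replicate 1.

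The rest of the pathway was described through 9 lists with 98 genes, of which 94 had a named probe. Of these, 79 (84.0%) were above background on both arrays, against 46.9% of all named genes. Many of them are expressed in most cell types, so their detection does not show that the response was active. Of the 79, 7 (8.86%) were 2-fold or more higher in replicate 2 and 8 (10.1%) lower, against 13.5% and 10.9% of all named genes. Their median log2 difference was 0.09, beside 0.21.

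**Figure D3:**
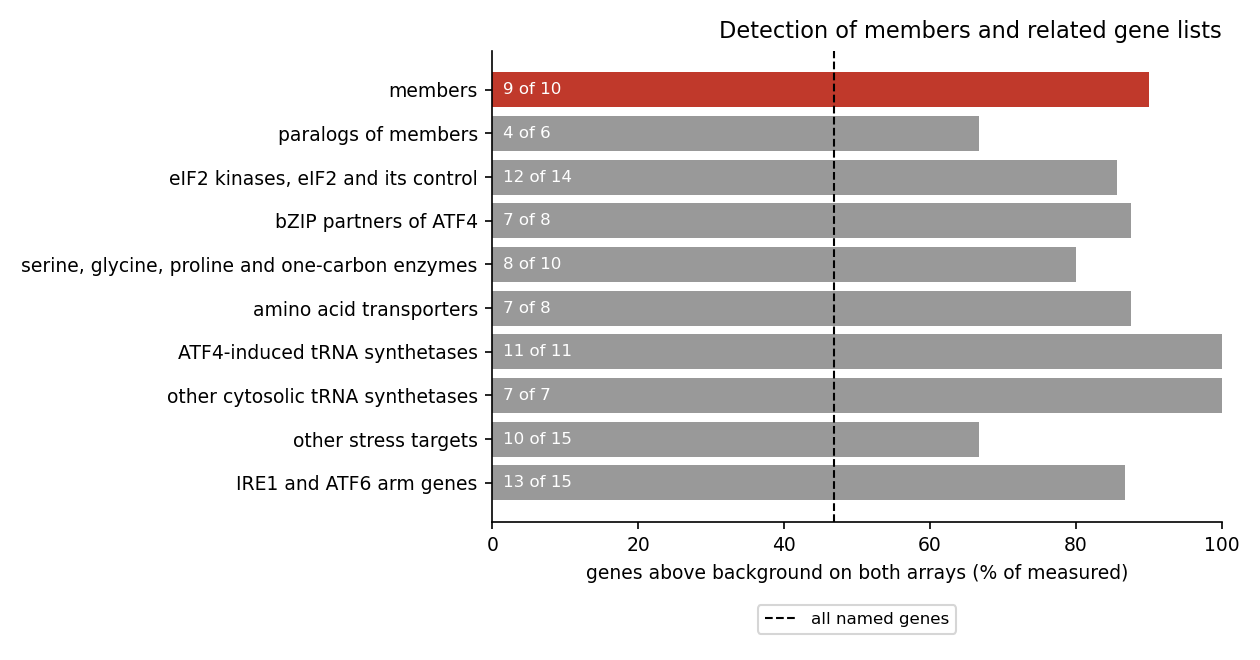
Percent of measured genes above background on both arrays for the members and 9 related lists, with the count printed in each bar; the dashed line is the share over all named genes, 46.9%. The members (9 of 10) and all 9 lists lie above that line, and both lists of tRNA synthetases reach 11 of 11 and 7 of 7.

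Upstream, the 4 eIF2 kinases were all detected. *EIF2AK1*, the haem-regulated kinase, had 1381 on replicate 2 and 1310 on replicate 1 at its brighter probe, and *EIF2AK2*, the kinase for double-stranded RNA, had 379 on replicate 2 and 250.3 on replicate 1. *EIF2AK3*, which encodes PERK, had 110.1 on replicate 2 and 53.7 on replicate 1 (log2 1.04). *EIF2AK4*, the amino acid sensor GCN2, had 357 on replicate 2 and 477 on replicate 1 (log2 -0.42). PERK was the only gene of its list of 14 that was 2-fold apart, among 12 above background. *PPP1R15A*, which encodes GADD34, the stress-induced subunit that directs eIF2 dephosphorylation and an ATF4 target itself, had 152 on replicate 2 and 159.7 on replicate 1.

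The bZIP factors that can pair with ATF4 or bind related sites included the 2 most negative differences of all 9 lists at the brightest probe. *CEBPA* had 60.2 on replicate 2 and 723 on replicate 1 (log2 -3.59), and *ATF5*, a relative of ATF4 that is also under translational control, had 57.04 on replicate 2 and 285 on replicate 1 (log2 -2.32). *CEBPB* had 308 on replicate 2 and 462 on replicate 1 (log2 -0.58), and *CEBPG*, a partner of ATF4 at amino acid response genes, had 348 on replicate 2 and 380.2 on replicate 1 (log2 -0.13). Of the 8 measured, 7 were above background, 2 of them 2-fold or more lower and none as much higher.

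Among the metabolic targets, 8 of 10 enzymes of serine, glycine, proline and one-carbon metabolism were above background, with a median log2 difference of -0.25. *PYCR1*, the mitochondrial proline-synthesis enzyme, was 2-fold or more lower, with 98.7 on replicate 2 and 274 on replicate 1 (log2 -1.47) at the 1 of its 3 probes above background. *SHMT2*, which makes glycine from serine in mitochondria, had 262 on replicate 2 and 515 on replicate 1 (log2 -0.98), whereas *SHMT1*, its cytosolic counterpart, had 62.5 on replicate 2 and 35.9 on replicate 1 (log2 0.80). *MTHFD2*, the mitochondrial folate enzyme, differed by -0.08. The amino acid transporters split both ways. *SLC7A5*, a carrier of large neutral amino acids, had 247 on replicate 2 and 859 on replicate 1 (log2 -1.80), and *SLC1A5*, the glutamine carrier, had 19.5 on replicate 2 and 49.5 on replicate 1 (log2 -1.34). *SLC38A2*, a glutamine and alanine carrier, had 410.1 on replicate 2 and 161 on replicate 1 (log2 1.35), and *SLC1A4*, a serine and alanine carrier, had 71.4 on replicate 2 and 26.1 on replicate 1 (log2 1.45). The lower values of *SLC1A5* and *SLC1A4* lay near background, under the 99th percentile floor of their array. *SLC7A11*, the cystine carrier and a well-known ATF4 target, had -13.99 on replicate 2 and -2.13 on replicate 1, below the floor on both.

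The tRNA synthetases, which load amino acids onto tRNA, differed by less than 2-fold throughout. All 11 measured cytosolic synthetases known as ATF4 targets were above background, with differences between -0.88 and 0.72 and a median of 0.03. The 7 other cytosolic synthetases, not usually listed as targets, had differences between -0.64 and 0.77 and a median of -0.04. No gene of either list was 2-fold apart, where 24.5% of all named genes were. Most of these synthetases were bright, however, and bright genes differed less between the arrays. In the brightest group of named genes the share was 17.7%, which is the closer comparison for them. *AARS1*, alanyl-tRNA synthetase, had 1599 on replicate 2 and 1732 on replicate 1, and *GARS1*, glycyl-tRNA synthetase, had 1588 on replicate 2 and 1682 on replicate 1.

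**Figure D4:**
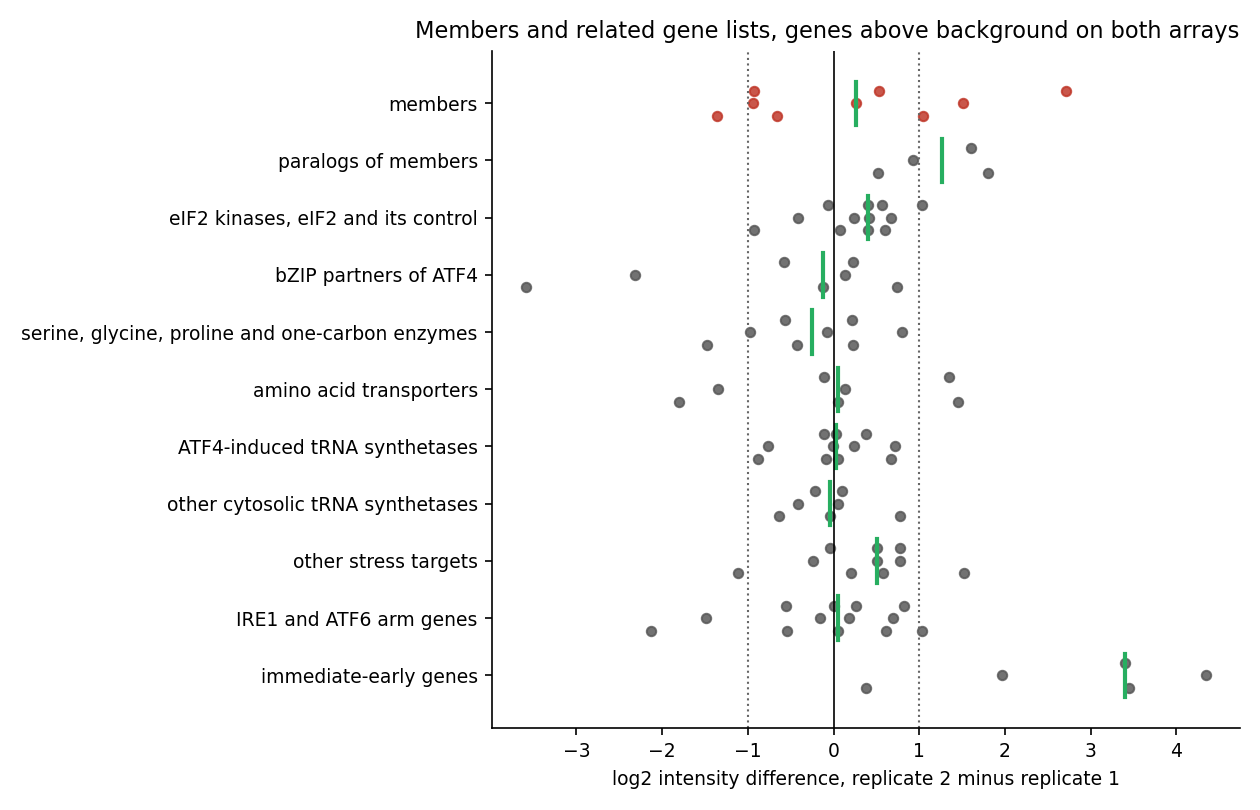
Log2 intensity difference, replicate 2 minus replicate 1, of each gene above background in the members, 9 related lists and the immediate-early genes; each point is 1 gene at its brightest probe, vertical bars are list medians, dotted lines mark 2-fold and the vertical spread of points has no meaning. All points of both tRNA synthetase lists lie between the 2-fold lines, and 4 of 5 immediate-early genes lie beyond the upper one.

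Of 15 further stress targets measured, 10 were above background. *GDF15*, a secreted stress hormone, had 336 on replicate 2 and 117 on replicate 1 (log2 1.52), and *VLDLR*, a lipoprotein receptor, had 401 on replicate 2 and 867 on replicate 1 (log2 -1.11). *STC2*, a secreted glycoprotein, had 432 on replicate 2 and 446 on replicate 1. *FGF21*, another secreted stress hormone, was above background at neither of its 2 probes on either array. The genes of the IRE1 and ATF6 arms, the other branches of the unfolded protein response, were above background in 13 of 15 cases, with a median log2 difference of 0.05. *DNAJB9*, a co-chaperone of BiP, differed by 1.03 on the log2 scale. *EDEM1*, a factor in the degradation of misfolded glycoproteins, differed by -2.14, and the chaperone *HYOU1* by -1.49 and, at its other probe, -2.33. *HSPA5*, the chaperone BiP, had 575 on replicate 2 and 555 on replicate 1. *XBP1*, the transcription factor of the IRE1 arm, had differences of -0.55 and 0.09 at its probes.

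Relatives of the members were also measured. *TRIB1* had 943 on replicate 2 and 309 on replicate 1 (log2 1.61) and *TRIB2* 105.2 on replicate 2 and 55.1 on replicate 1 (log2 0.93), while *TRIB3* was lower in replicate 2. *SESN1*, a target of p53, had 258 on replicate 2 and 180.5 on replicate 1 (log2 0.52), while *SESN2* was lower in replicate 2. *DDIT4L*, the paralog of *DDIT4*, had 80.8 on replicate 2 and 23.1 on replicate 1 (log2 1.81). *SESN3* and *CHAC2* were not above background on both arrays. All 4 relatives above background were higher in replicate 2, with a median of 1.27, beside 0.21 over all named genes above background. More of those named genes were higher than lower as well, and so few relatives do not show a shared trend. The *DDIT4L* value on replicate 1 lay near background, under the 99th percentile floor of 32.3 on that array.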

How the data were processed

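Expression was measured on 2 Illumina bead arrays of 1 group. The deposited unit is intensity, not log-transformed. The submitters' processing notes name GenomeStudio and give no version. Values reach -22.6, and the sorted values of the arrays differ by at most 0.155, as background subtraction and quantile normalization leave them. Quantile normalization hides a change shared by all genes. No detection p-value was used, and the number of arrays limits the precision. The genome build behind the deposited values is not given in the sources used here.

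Probes were named from the platform annotation: 30113 had 1 gene, 8 several and 17202 were not listed. Symbols were looked up through the Entrez identifier for 30074 probes, and the other 39 were left as annotated. The background floor is the 95th percentile of 457 olfactory receptor probes on each array. Values under it were set to it before log2 was taken. Among a gene's probes above background, the one with the highest mean log2 value stands for it. No p-value is given, since 1 group of 2 arrays allows no test, and no likeness between genes was computed, because 2 arrays fix any correlation at its limits. The calculation was tested on simulated data, with changes well above 2-fold in bright genes and less noise than between these arrays. That test therefore does not show how well 2-fold calls hold here. The members and lists were chosen with earlier results of these data known, and the motif letters with the promoter windows in view. Every member probe is given; of the other lists, the first 4 measured genes and those 2-fold or more apart could be named. Named after their values were seen were *PPP1R15A*, *MTHFD2*, *CHAC2*, *NKX6-1*, *SERPINA1* and *VIM*. The same holds for markers and immediate-early genes named as not above background on both arrays. Python 3.11.15, numpy 2.4.6, pandas 2.3.3 and matplotlib 3.10.9 were used. Alternatives changed the floor, the background probes, the centring, a repeated quantile normalization, the offset, the probe of a gene and the symbols.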

Additional observations from a re-analysis of the deposited data

How the results depend on the processing

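No paired analysis was possible because the study has 1 group. The 11 probes and 9 genes above background on both arrays were 10 and 8 at the 99th percentile floor, which drops *ATF3*, and 11 and 9 at the 90th percentile floor, at the floor from keratin-associated protein and taste receptor probes and with the annotation's own symbols. Without replicate 1, 11 probes and 9 genes were above background, and without replicate 2, 12 and 9. The 3 genes 2-fold or more higher in replicate 2 became 2 at the 99th percentile floor (without *ATF3*), with median centring and with an offset of 50 (both without *PSAT1*), and the 1 lower gene, *PHGDH*, was called under each of these. The median log2 difference ranged from -0.20 to 0.26. It was negative at the 99th percentile floor and with the median over a gene's probes above background (-0.11). Each of the 9 differences was recomputed under 4 alternatives, and 35 of 36 values kept their sign. The exception was *ATF4*, which turned to -0.11 with the median over its probes above background. That alternative was added for single genes after seeing the data. The count says little about stability. An offset cannot change a sign, and centring or a repeated quantile normalization moved the differences only slightly. The median probe can change only *ATF4* and *ASNS*, the members with 2 probes above background. The *ATF3* difference was 1.55 with the offset. Over all named genes, the 1272 higher and 1026 lower became 455 and 591 with the offset. Among the members, signal near background limits *ATF3* and *SESN2* most.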
